A study of Homo sapiens with 12 samples.

Results

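Transcripts of the cytosolic HSP70 chaperones and of their partner DNAJB1 were followed across 12 RNA-seq libraries of 2 colorectal cancer cell lines. The 10 genes were picked by name from the 60623 genes of the count table: HSPA6 and its near-copy HSPA7, the near-identical pair HSPA1A and HSPA1B with the readthrough gene AL671762.1, HSPA1L, HSPA2, HSPA8, HSPA4L and DNAJB1. They were picked with the response to the HKDC1 plasmid in both lines already known, so that response is described here and not tested as a finding. All 10 were among the 23684 genes with enough counts to test. The groups were SW480 with pCMV6-HKDC1, SW480 with the empty vector pCMV6-Entry, COLO320DM with pCMV6-HKDC1 and COLO320DM with pCMV6-Entry, with 3 libraries each. SW480 is an established line from a colon adenocarcinoma, and COLO320DM is an established, poorly differentiated colorectal line with amplified MYC. The plasmid carries HKDC1, a member of the hexokinase family, and all 4 groups went through the same transfection with 10 µg of plasmid, Lipofectamine 2000 and a stop at 24 h. No untransfected cells were analysed here, so what transfection itself does to these genes cannot be told apart from the baseline of each line. A transient transfection reaches only some of the cells, and the values are averages over all of them.

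HSP70 proteins bind exposed hydrophobic stretches of other proteins and release them in a cycle driven by ATP. J-domain proteins such as DNAJB1 bring clients and start ATP hydrolysis, and nucleotide exchange factors such as the HSP110 protein HSPA4L reset the cycle. In most cells HSPA8 is made at all times, while HSPA1A, HSPA1B, HSPA6 and DNAJB1 are switched on by heat and other protein-damaging stress through the factor HSF1, which binds inverted repeats of GAA.

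The stretch just upstream of the start is shown for the 5 members that carry most of the results, since their promoters differ in how many such repeats they hold. Each is the 250 bases before the RefSeq start on GRCh38.p14, written 5′ to 3′ along the gene, with matches to GAANNTTC or TTCNNGAA in capitals. HSPA6 lies at chr1:161524290-161524539 (plus strand), HSPA1A at chr6:31815293-31815542 (plus), HSPA1B at chr6:31827488-31827737 (plus), HSPA8 at chr11:123062137-123062386 (minus) and DNAJB1, from the second of its 3 listed starts, at chr19:14518398-14518647 (minus).
HSPA6: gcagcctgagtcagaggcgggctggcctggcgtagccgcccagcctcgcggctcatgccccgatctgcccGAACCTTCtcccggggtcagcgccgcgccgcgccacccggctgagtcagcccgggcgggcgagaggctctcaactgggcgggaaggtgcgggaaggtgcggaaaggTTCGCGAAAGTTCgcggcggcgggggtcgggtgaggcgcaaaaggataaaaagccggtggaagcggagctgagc
HSPA1A: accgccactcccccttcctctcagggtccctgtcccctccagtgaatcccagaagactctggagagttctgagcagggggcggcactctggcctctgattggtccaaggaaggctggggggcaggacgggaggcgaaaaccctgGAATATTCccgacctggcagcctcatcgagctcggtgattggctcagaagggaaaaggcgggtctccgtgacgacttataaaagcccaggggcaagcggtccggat
HSPA1B: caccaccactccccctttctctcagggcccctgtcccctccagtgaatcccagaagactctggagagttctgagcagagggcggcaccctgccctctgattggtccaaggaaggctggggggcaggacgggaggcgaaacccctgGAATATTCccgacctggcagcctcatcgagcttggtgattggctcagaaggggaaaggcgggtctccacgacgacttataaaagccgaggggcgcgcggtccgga
HSPA8: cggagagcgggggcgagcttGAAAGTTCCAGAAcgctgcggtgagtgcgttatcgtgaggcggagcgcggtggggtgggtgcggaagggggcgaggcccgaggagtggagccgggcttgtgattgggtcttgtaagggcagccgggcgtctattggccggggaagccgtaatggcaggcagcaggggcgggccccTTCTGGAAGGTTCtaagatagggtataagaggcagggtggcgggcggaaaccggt
DNAJB1: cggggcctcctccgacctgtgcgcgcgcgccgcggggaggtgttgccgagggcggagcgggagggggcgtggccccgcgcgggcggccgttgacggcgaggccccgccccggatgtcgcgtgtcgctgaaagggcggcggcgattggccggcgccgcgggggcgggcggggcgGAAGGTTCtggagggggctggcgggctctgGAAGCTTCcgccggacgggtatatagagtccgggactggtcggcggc

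HSPA6 held 3 matches, 2 of which overlap in the triple repeat TTCNNGAANNTTC that begins 74 bases before the start. HSPA8 held 4 matches, in 2 triple repeats that begin 230 and 55 bases before the start. In the window shown DNAJB1 held 2 separate matches, 77 and 47 bases before the start, and the windows of its other listed starts held none. HSPA1A and HSPA1B held 1 match each, the same letters GAATATTC, 106 and 105 bases before the start, in windows that agree at 235 of 249 aligned bases (94.4%). HSPA1L is read from the opposite strand next to HSPA1A, and its window holds the same match 161 bases before its own start. One of the 3 windows of HSPA4L held a match, and the window of HSPA2 held none. Among 35116 windows of 27305 genes, 11.6% held a match to GAANNTTC or TTCNNGAA, and 0.441% (155 windows) held GAANNTTCNNGAA or TTCNNGAANNTTC. Both motifs are their own reverse complements or each other's, so both strands were searched. A match describes the letters only, and binding was not measured. HSPA7 and AL671762.1 had no window in the table used.

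Positions are on GRCh38, with coordinates from the deposited table. HSPA6 (ENSG00000173110, chr1:161524540-161526894) and HSPA7 (ENSG00000225217, chr1:161606291-161608217) lie near each other on the plus strand of chromosome 1, each as 1 exon. HSPA1L (ENSG00000204390, chr6:31809619-31815283, minus strand), HSPA1A (ENSG00000204389, chr6:31815543-31817946) and HSPA1B (ENSG00000204388, chr6:31827738-31830254) sit side by side in the class III region of the MHC on chromosome 6. HSPA2 (ENSG00000126803, chr14:64535905-64546173), HSPA8 (ENSG00000109971, chr11:123057489-123063230), HSPA4L (ENSG00000164070, chr4:127781821-127840733) and DNAJB1 (ENSG00000132002, chr19:14514769-14529770) stand alone. DNAJB1 shares 192 of its 3650 exon bases with TECR on the other strand, and 98 with MIR639. HSPA4L shares 536 of its 11439 exon bases with AC093591.2 and 183 with RPL21P53, also on the other strand, and HSPA8 exons hold SNORD14C and SNORD14D. The labels name no step that marks strand, so reads from such overlaps cannot be told apart.

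HKDC1 itself was measured first, as a check of the labels. It had 13372 ± 1054 CPM (counts scaled to library size with TMM factors) in SW480 with the HKDC1 plasmid and 35.7 ± 2.34 CPM in SW480 with empty vector (SD, n = 3 each). In COLO320DM it had 8466 ± 1649.6 CPM with the HKDC1 plasmid, against 0 to 1 counts per library with empty vector. Library totals ranged from 33790733 to 45451279 counts. The epithelial marker EPCAM had 474 to 576 CPM in SW480 and 1.36 to 2.32 CPM in COLO320DM. In COLO320DM the intestinal factor CDX2 reached 1373 to 1555 CPM, while CDH1 had at most 4 counts and KRT19 at most 6 counts in a library. Of 8 epithelial markers, 6 were called higher and 1 lower in SW480 with empty vector. The neuroendocrine marker INSM1 had 0 counts in every COLO320DM library, and CHGA had at most 23, while CHGB had 53 to 116, SYP 54 to 106 and ENO2 1038 to 1305 counts per COLO320DM library. In CPM, CHGB was at 1.25 to 2.68 in COLO320DM, beside 0.341 to 0.660 in SW480, whereas SYP and ENO2 were lower in COLO320DM than in SW480 in every library. The leukocyte gene PTPRC had at most 38.3 CPM in COLO320DM with the T-cell gene CD3E at 0 or 1 counts, and their part in the results below was not tested. The labels do not say whether the 3 libraries of a group come from separate cultures, so the p-values measure only the spread between these libraries.

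**Figure D1:**
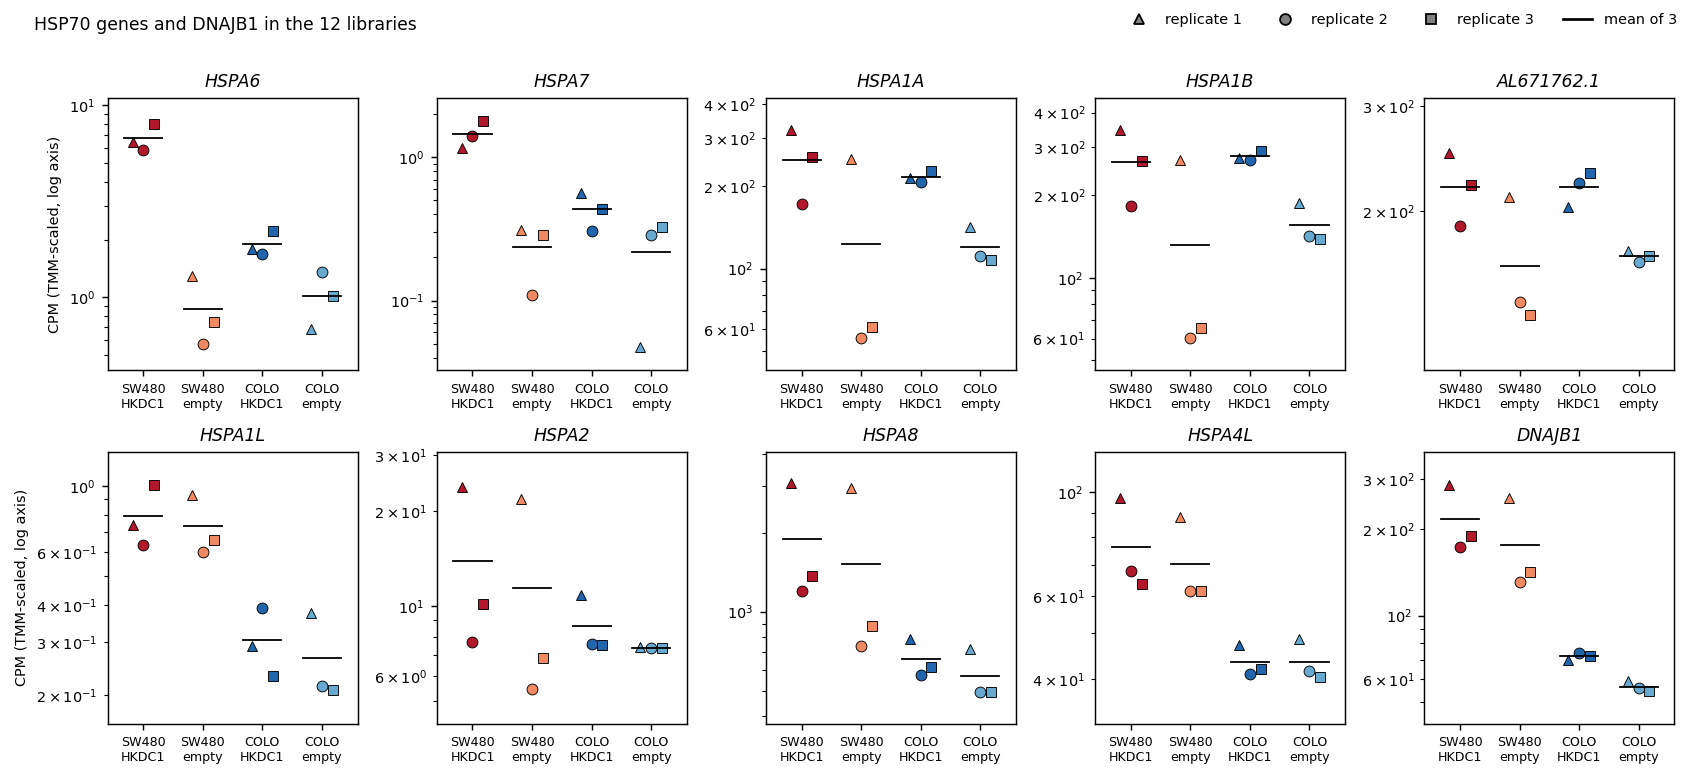
CPM of each member in the 12 libraries on a log axis (each panel has its own range), by line and plasmid. Points are single libraries, marked by replicate number, and black lines are means of 3. Replicate 1 of SW480 with empty vector stands far above replicates 2 and 3 for HSPA1A, HSPA1B, HSPA2 and HSPA8.

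HSPA8, the constitutive form, had the highest level per length of any member other than AL671762.1, which is described below. Per kilobase of exon it averaged 389 ± 216 CPM in SW480 with the HKDC1 plasmid and 314 ± 255 CPM in SW480 with empty vector, against 136 ± 23.0 and 117 ± 27.1 CPM in the matching COLO320DM groups (SD, n = 3 each). HSPA1A and HSPA1B followed. In SW480 with the HKDC1 plasmid they averaged 104 ± 31.0 and 105 ± 32.4 CPM per kilobase, and their ranges overlapped. DNAJB1 averaged 59.4 ± 16.8 CPM per kilobase in SW480 with the HKDC1 plasmid and 19.7 ± 0.553 in COLO320DM with the HKDC1 plasmid. The remaining members were far lower. With empty vector HSPA4L had 6.15 ± 1.35 CPM per kilobase in SW480 and 3.80 ± 0.389 in COLO320DM, and HSPA2 had 1.97 ± 1.57 and 1.28 ± 0.00752. HSPA6, HSPA7 and HSPA1L were all below 1 CPM per kilobase with empty vector in both lines. Within SW480 with empty vector the ranges of neighbours overlapped from HSPA8 down to DNAJB1, so that order is not fixed beyond the spread. In COLO320DM with the HKDC1 plasmid only AL671762.1 and HSPA8 had overlapping ranges among neighbours in the order.

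AL671762.1 needs its own description, because its count is nearly all made of its neighbours. It is annotated on chromosome 6 from 31828834 to 31839719 on the plus strand, as transcripts that run from HSPA1B into the non-coding gene SNHG32. Of its 1338 exon bases, 920 are shared with HSPA1B and 418 with SNHG32, and 0 are its own. Over the 12 libraries its counts followed 0.5285 times the HSPA1B count plus 0.866 times the SNHG32 count, with a median deviation of 1.22% and a largest one of 2.19%. SNHG32 had 91.9 ± 17.4 CPM in SW480 with the HKDC1 plasmid and 105 ± 25.1 CPM in SW480 with empty vector (SD, n = 3 each). A value of AL671762.1 is therefore a blend of HSPA1B and SNHG32. It stays among the 10 members where they are counted below, as the choice of members names it, and is no separate response there. Its level per kilobase was set aside in the order above for the same reason.

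**Figure D2:**
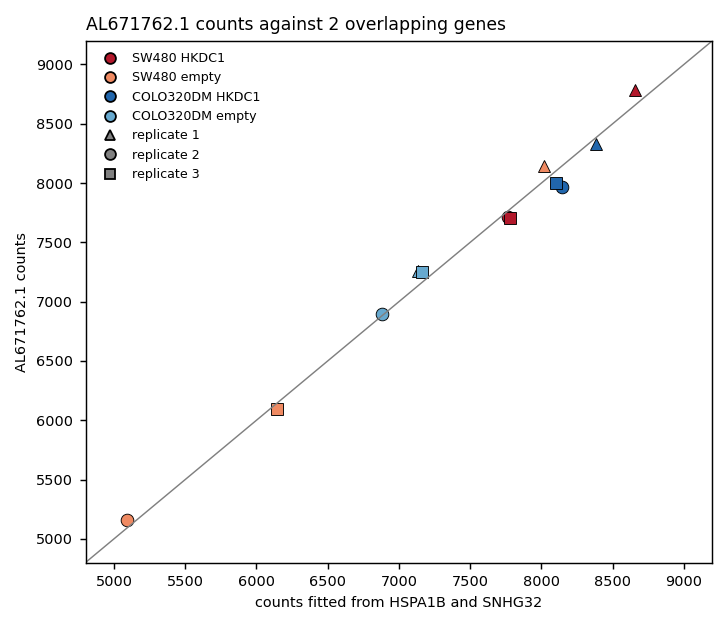
Counts of AL671762.1 in the 12 libraries against the counts fitted from HSPA1B and SNHG32, with the line of equality. Every library lies within 2.19% of the line.

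Copies that share sequence were treated together as well. Aligned over their transcripts, HSPA6 and HSPA7 agreed at 98.6% of bases and HSPA1A and HSPA1B at 98.7%. Of all 50-base windows of the HSPA1A transcript, 72.6% occur unchanged in HSPA1B, and 45.5% of those of HSPA6 occur in HSPA7. By contrast HSPA8 and HSPA1A agreed at 75.2%, with no shared 50-base window. How reads that match both copies were counted is not given in the sources used here, so a value of 1 copy alone is uncertain. The counts of HSPA1A were 0.929, 0.942 and 0.961 times those of HSPA1B in SW480 with the HKDC1 plasmid, against 0.784, 0.768 and 0.786 times in COLO320DM with the HKDC1 plasmid. With empty vector the ratio was 0.938, 0.925 and 0.933 in SW480, against 0.757, 0.783 and 0.774 in COLO320DM. The lines did not overlap with either plasmid (exact two-sided permutation p = 0.1 each, the smallest that 3 against 3 libraries allow). Within a line the ratio moved little, even where libraries differed by more than 4-fold for both genes. The ratio of HSPA7 to HSPA6 counts was 0.216 ± 0.0312 in SW480 and 0.231 ± 0.0730 in COLO320DM with the HKDC1 plasmid (SD, n = 3 each, exact permutation p = 0.8).

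The response to the HKDC1 plasmid is given next, as a description. In SW480 HSPA6, the strictly inducible human HSP70, had 6.43, 5.87 and 7.99 CPM with the HKDC1 plasmid, against 1.30, 0.572 and 0.748 CPM with empty vector, in replicates 1 to 3. The groups did not overlap, and the fitted fold was 7.73 (log2 2.95, SE 0.30). HSPA7 had 41, 58 and 63 counts with the HKDC1 plasmid, against 12, 4 and 13 counts with empty vector, also with no overlap. In COLO320DM HSPA6 had 1.78, 1.68 and 2.23 CPM with the HKDC1 plasmid, against 0.683, 1.36 and 1.02 CPM with empty vector, a fitted fold of 1.86 (log2 0.89, SE 0.30). HSPA7 counts overlapped there, at 23, 11 and 15 with the HKDC1 plasmid, against 2, 12 and 14 with empty vector. Summed over both copies, the pairs of same-numbered libraries differed by 4.72-, 10.7- and 9.47-fold in SW480 and by 3.20-, 1.21- and 1.98-fold in COLO320DM.

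HSPA1A and HSPA1B, the main inducible pair, were higher with the HKDC1 plasmid in every pair of libraries of both lines. In SW480 HSPA1A had 321, 172 and 257 CPM with the HKDC1 plasmid, against 252, 55.8 and 61.4 CPM with empty vector. These groups overlapped, since replicate 1 with empty vector lay inside the range of the HKDC1 libraries. In COLO320DM HSPA1A had 215, 207 and 228 CPM with the HKDC1 plasmid, against 142, 111 and 107 CPM with empty vector, and the groups stood apart. HSPA1B ran in parallel, with 346, 183 and 267 CPM in SW480 with the HKDC1 plasmid, against 268, 60.3 and 65.8 CPM with empty vector. In COLO320DM it had 274, 269 and 290.0 CPM with the HKDC1 plasmid, against 187, 142 and 139 CPM with empty vector. For the sum of the pair, same-numbered libraries differed by 1.28-, 3.06- and 4.12-fold in SW480 and by 1.49-, 1.88- and 2.11-fold in COLO320DM. AL671762.1 differed by 1.18-, 1.34- and 1.65-fold in SW480, as a blend of the higher HSPA1B and of SNHG32, which was at log2 −0.20 (SE 0.20) and, with the replicate block, at −0.19 (SE 0.06, edgeR adjusted p = 0.162).

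DNAJB1, the J-domain partner, showed smaller and more even differences. In SW480 it had 287, 174 and 190.2 CPM with the HKDC1 plasmid, against 257, 131 and 142 CPM with empty vector. In COLO320DM it had 69.9, 73.9 and 72.2 CPM with the HKDC1 plasmid, against 58.9, 55.7 and 54.7 CPM with empty vector, with no overlap. Pair by pair this was 1.12-, 1.33- and 1.34-fold in SW480 and 1.19-, 1.33- and 1.32-fold in COLO320DM. HSPA8 had 3093, 1195 and 1369.6 CPM in SW480 with the HKDC1 plasmid, against 2950.1, 737 and 878 CPM with empty vector. In COLO320DM it had 784, 573 and 616 CPM with the HKDC1 plasmid, against 719, 493 and 492 CPM with empty vector. Its pairs differed by 1.05-, 1.62- and 1.56-fold in SW480 and by 1.09-, 1.16- and 1.25-fold in COLO320DM, so the constitutive form moved less than HSPA1A in each pair.

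The other 3 members had small differences or low counts. HSPA2, known best for its role in sperm development, had 23.8, 7.71 and 10.1 CPM in SW480 with the HKDC1 plasmid, against 21.8, 5.48 and 6.82 CPM with empty vector. HSPA4L, the HSP110 nucleotide exchange factor, differed by 1.04- to 1.11-fold between same-numbered libraries in SW480 and by 0.973- to 1.04-fold in COLO320DM. HSPA1L, a mostly testicular form, had 26, 26 and 35 counts in SW480 with the HKDC1 plasmid, against 36, 22 and 30 counts with empty vector, with overlap. In COLO320DM it had 12, 14 and 8 counts with the HKDC1 plasmid, against 16, 9 and 9 counts with empty vector. Counts this low leave HSPA1L and HSPA7 with wide counting error. HSPA6 was low as well, with 50, 21 and 34 counts in SW480 with empty vector. In COLO320DM it had 73, 60 and 77 counts with the HKDC1 plasmid, against 29, 57 and 44 with empty vector. The HSPA6 folds above carry this counting error too.

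**Figure D3:**
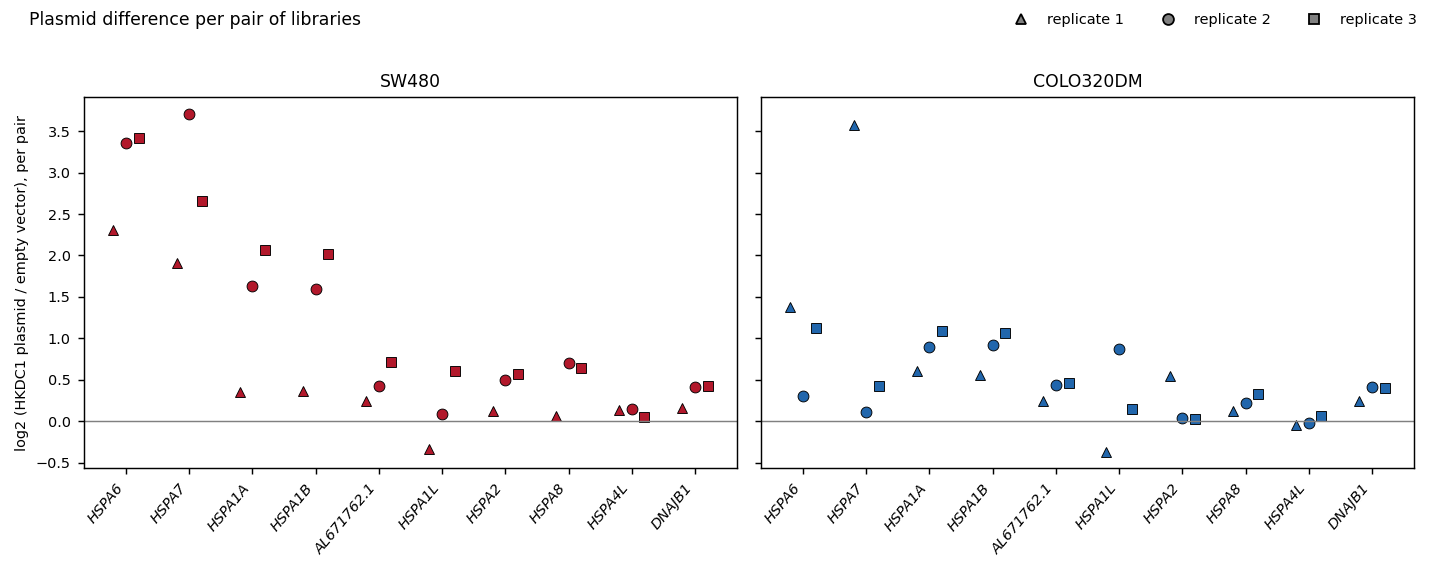
Log2 ratio of HKDC1 plasmid over empty vector for each pair of same-numbered libraries, SW480 on the left and COLO320DM on the right. In SW480 the pair of replicate 1 is the lowest of the 3 for 9 members, and HSPA6 and HSPA7 lie above the other members in all 3 pairs.

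Counting over the members, 9 of 10 had all 3 pairs above 1 in SW480, where 14% of all genes tested did, and 8 of 10 in COLO320DM, where 13.3% did. With no overlap of the groups, 2 members were higher in SW480 (2.16% of all genes) and 6 in COLO320DM (3.52% of all genes). In the edgeR quasi-likelihood test over all genes, HSPA6 alone was called in SW480 (adjusted p = 0.00186), where 0.0127% of genes were called higher, and 5 members had an unadjusted p under 0.05 (1.5% of genes). Without replicate 1 of SW480 with empty vector 3 members were called there, beside 0.0206% of genes, and without replicate 1 of all groups 8, beside 3.03%. In COLO320DM 0 members were called, against 0.00844% of genes, and 2 members had an unadjusted p under 0.05, as 1.32% of genes did. The count there was 0 by DESeq2 and by limma-voom as well. With the replicate number as a block, 4 members were called in SW480 (HSPA6, HSPA7, AL671762.1 and DNAJB1), beside 0.76% of all genes, and 2 in COLO320DM (AL671762.1 and DNAJB1), beside 0.076%. With near-identical copies and AL671762.1 summed into their groups, an alternative chosen after seeing the data, the block called 2 units in SW480 and 1 in COLO320DM. The counts of this summed fit come without the share of all genes called in it, so they are not compared with genes at large. Since the members were chosen on this contrast, nothing is read from these counts. The median log2 difference of the members was 0.375 in SW480 and 0.369 in COLO320DM, beside medians of 0 and −0.001 over all genes tested. Both lines used their own empty-vector libraries, so these counts do not share controls.

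The plasmid effect on HSPA6 was larger in SW480 than in COLO320DM by 2.06 on the log2 scale (SE 0.42). Without the block this did not pass the edgeR test (adjusted p = 1, unadjusted p = 0.000303), and 0 members were called where 0.00844% of genes were. At an unadjusted p under 0.05 there were 2 members, beside 1.6% of genes, and DESeq2 called 1. The DESeq2 count comes without the share of all genes called in that fit. With the replicate block the same difference was 2.06 (SE 0.31, edgeR adjusted p = 0.000526), and HSPA6 was the 1 member called, beside 0.0422% of all genes. For HSPA1A the difference was 0.17 (SE 0.62) and for DNAJB1 −0.05 (SE 0.32), neither called in either of these fits. The HSPA1A value moved with single libraries of SW480. Without replicate 1 of SW480 with empty vector it was 1.22 (edgeR adjusted p = 0.897), and without replicate 2 or 3 of that group −0.17 or −0.15. Without replicate 1 of SW480 with the HKDC1 plasmid it was −0.04. With the block and without the pair of replicate 1 of SW480 it was 0.97 and called (edgeR adjusted p = 0.000189). Without replicate 1 of all 4 groups it was 0.85 and not called (edgeR adjusted p = 0.572), and with the block as well 0.84 and called (adjusted p = 0.000525).

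Replicate 1 of SW480 stood apart in these genes, and several of the values above include it. In SW480 with empty vector, replicate 1 was the highest of the 3 libraries for all 10 members, where it was the highest for 41.2% of all genes tested. It exceeded the mean of replicates 2 and 3 by 3.65-fold for HSPA8, 4.29-fold for HSPA1A, 4.25-fold for HSPA1B, 3.55-fold for HSPA2 and 1.88-fold for DNAJB1. In SW480 with the HKDC1 plasmid the same ratios were 2.41 for HSPA8, 1.5 for HSPA1A, 1.54 for HSPA1B, 2.68 for HSPA2 and 1.58 for DNAJB1, while HSPA6 was at 0.927. At least a 2-fold excess was seen for 4 members in SW480 with empty vector and 2 with the HKDC1 plasmid, beside 3.03% and 1.71% of all genes. In COLO320DM 0 members reached 2-fold in either group. Replicate 1 was still the highest there for 8 members with empty vector and 4 with the HKDC1 plasmid, beside 39% and 36.5% of all genes. For HSPA8 its ratio was 1.46 and 1.32 in these COLO320DM groups. Of 51 other chaperone genes tested, replicate 1 of SW480 with empty vector was above the mean of replicates 2 and 3 for 41 and below it for 10, with a median ratio of 1.28, and 7 reached 2-fold. Among those well above were HSP90AA1, with 4927, 1935 and 2173 CPM in replicates 1 to 3, and the ER form HSPA5, with 992, 359 and 374 CPM. Among those below were ZFAND2A, with 8.77, 17.6 and 18.6 CPM, and DNAJB5, with 3.27, 8.39 and 8.16 CPM. In SW480 with the HKDC1 plasmid 40 were above and 11 below, and 1 reached 2-fold. In COLO320DM 33 were above and 18 below with empty vector, and 29 above and 22 below with the HKDC1 plasmid, with 0 at 2-fold. No label sets replicate 1 apart, and what differed in replicate 1 of either line was not tested. Single libraries of SW480 also set the sign or size of several plasmid differences. Leaving out replicate 1 of the empty vector, the log2 difference was 1.2 for HSPA8, 1.15 for HSPA2 and 2.07 for HSPA1A (edgeR adjusted p = 0.00099, called). Leaving out replicate 1 of the HKDC1 plasmid, it was −0.24 for HSPA8 and −0.34 for HSPA2, against 0.31 and 0.29 with all libraries. Each of these fits drops replicate 1 from 1 group only, although it was high for these genes in each SW480 group. Without replicate 1 of all 4 groups, chosen after seeing the data, the difference was 0.65 for HSPA8 (SE 0.07) and 0.50 for HSPA2 (SE 0.13). With the replicate block and all libraries it was 0.47 and 0.37. In replicates 2 and 3 alone, 9 members were higher with no overlap with the HKDC1 plasmid in SW480, as were 20.2% of all genes. By the same rule 8 were higher in COLO320DM, as were 17.7% of all genes.

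The comparison between the lines was not the one on which the members were chosen, and it was tested over all genes. It uses the same libraries, so for HSPA6 and HSPA7 the values with the HKDC1 plasmid are not independent of the choice. DNAJB1, HSPA8, HSPA1L and HSPA4L were higher in SW480 than in COLO320DM with either plasmid. By edgeR 0 members were lower with empty vector, where 34.3% of all genes were, and the 4 with an unadjusted p under 0.05 (73.4% of genes) were all higher. With empty vector DNAJB1 averaged 176 ± 69.7 CPM in SW480 and 56.4 ± 2.22 CPM in COLO320DM (SD, n = 3 each), a fitted fold of 3.13 (log2 1.64, SE 0.23, edgeR adjusted p = 2.90e-05). No library of the groups overlapped. HSPA8 averaged 1522 ± 1239 CPM in SW480 and 568 ± 131 CPM in COLO320DM (log2 1.42, SE 0.47, edgeR adjusted p = 0.0154). HSPA4L averaged 70.4 ± 15.5 CPM in SW480 and 43.4 ± 4.45 CPM in COLO320DM (log2 0.70, SE 0.17, edgeR adjusted p = 0.00245). HSPA1L had 36, 22 and 30 counts in SW480 and 16, 9 and 9 counts in COLO320DM (log2 1.44, SE 0.35, edgeR adjusted p = 0.00218). These 4 calls among 10 members stand beside 71.6% of all genes tested called between the lines, and 37.3% of all genes tested called higher in SW480, so the members were not called more often than genes at large. In RNA from whole cultures, fewer cells making a transcript and less RNA per cell cannot be told apart.

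HSPA1A and HSPA1B did not differ between the lines beyond the spread in the full set of libraries. With empty vector HSPA1A averaged 123 ± 111 CPM in SW480 and 120.0 ± 18.8 CPM in COLO320DM (log2 0.03, SE 0.44, edgeR adjusted p = 0.949), and the HSPA1B difference was −0.25 (SE 0.44, adjusted p = 0.63). This rested on 1 library. Without replicate 1 of SW480 with empty vector, HSPA1A was lower in SW480 by 1.02 on the log2 scale (−1.02, edgeR adjusted p = 0.000416) and HSPA1B by 1.30 (−1.30, adjusted p = 8.79e-05). The HSPA8 difference was 0.52 without the same library (edgeR adjusted p = 0.214). Without replicate 1 of all 4 groups, an alternative chosen after seeing the data, HSPA8 was higher in SW480 by 0.73 (edgeR adjusted p = 3.92e-10). Called lower in SW480 in that fit were HSPA1A at −0.89 (adjusted p = 0.0154) and HSPA1B at −1.14 (adjusted p = 0.00354). So were AL671762.1 at −0.26 (adjusted p = 0.000332) and HSPA6 at −0.82 (adjusted p = 0.0106). With replicate 1 left out in that way, DNAJB1, HSPA1L and HSPA4L were still called higher in SW480.

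With the HKDC1 plasmid 6 members were called higher in SW480 than in COLO320DM by edgeR and 0 lower, beside 37.4% of all genes higher, 33.5% lower and 70.8% called in all. The same 6 had an unadjusted p under 0.05, as 73% of genes did. DNAJB1 averaged 217 ± 61.2 CPM in SW480 and 72.0 ± 2.02 CPM in COLO320DM (SD, n = 3 each; log2 1.59, SE 0.23, edgeR adjusted p = 3.92e-05). HSPA6 averaged 6.76 ± 1.10 CPM in SW480 and 1.90 ± 0.292 CPM in COLO320DM (log2 1.83, SE 0.28, edgeR adjusted p = 6.11e-05). HSPA7 (log2 1.74, SE 0.45, edgeR adjusted p = 0.00354) went with it, whereas with empty vector HSPA6 was at −0.23 (SE 0.32, adjusted p = 0.537) and HSPA7 at 0.12 (SE 0.56, adjusted p = 0.859). HSPA8 averaged 1886 ± 1049 CPM in SW480 and 658 ± 111 CPM in COLO320DM (log2 1.52, SE 0.47, edgeR adjusted p = 0.0110). Without replicate 1 of SW480 with the HKDC1 plasmid it was higher by 0.95 and no longer passed (adjusted p = 0.113). HSPA1L (log2 1.36) and HSPA4L (log2 0.81) were also called, with edgeR adjusted p of 0.00335 and 0.000807. The groups did not overlap for 6 members, where 39.2% of all genes were higher without overlap, and with empty vector for 4, where 38% were.

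**Figure D4:**
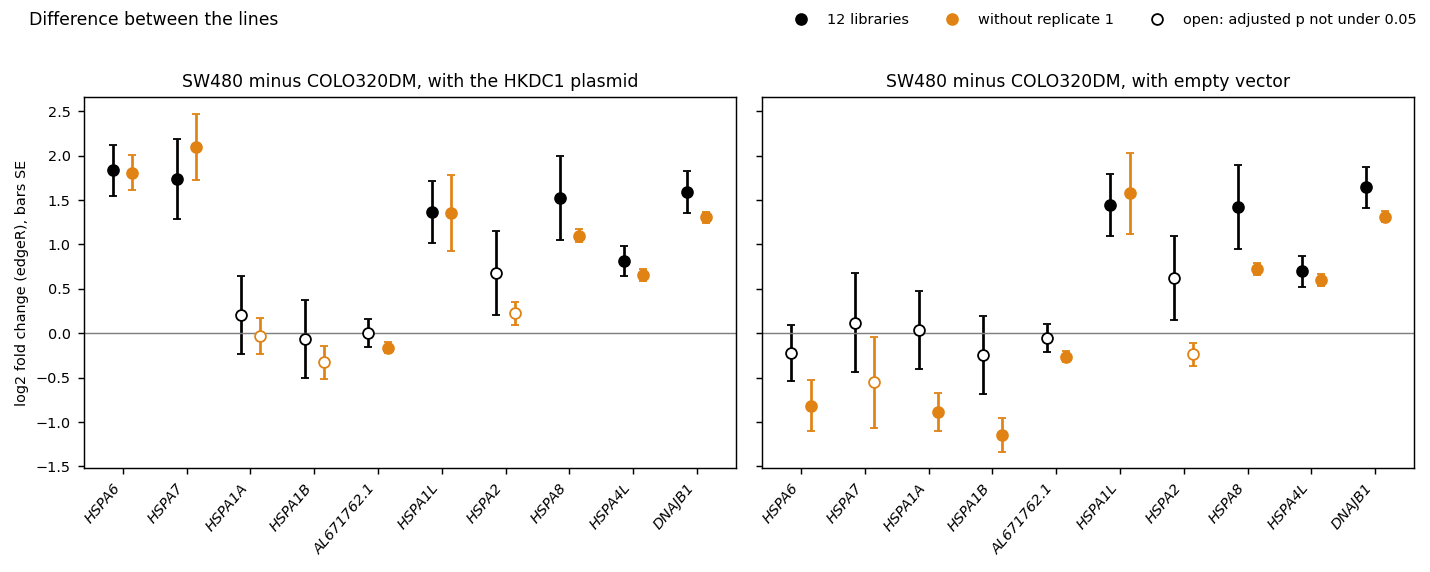
Fitted log2 difference of SW480 minus COLO320DM for each member with its SE, with the HKDC1 plasmid on the left and with empty vector on the right. Black points use all 12 libraries, orange points leave out replicate 1 of all groups, and open points have an edgeR adjusted p that is not under 0.05. With empty vector HSPA1A is at −0.89 without replicate 1 and at 0.03 with all libraries.

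The lines also differed in which form made up the cytosolic HSP70 transcripts. Levels per kilobase were summed over HSPA8, the HSPA1 group (HSPA1A, HSPA1B and AL671762.1), HSPA6 with HSPA7, HSPA2 and HSPA1L. With empty vector HSPA8 took 61.9%, 49.7% and 54.1% of the sum in SW480, against 36.1%, 30.9% and 30.9% in COLO320DM. The HSPA1 group took 44.2 ± 6.18% in SW480 and 66.8 ± 2.90% in COLO320DM (SD, n = 3 each). With the HKDC1 plasmid HSPA8 took 57.8%, 45.9% and 42.4% in SW480, against 31.4%, 24.6% and 24.8% in COLO320DM, and the HSPA1 group 50.4 ± 7.96% and 72.6 ± 3.92%. None of these groups overlapped between the lines (exact two-sided permutation p = 0.1 each, the smallest this design allows). These shares of the HSPA1 group include AL671762.1, which holds SNHG32 reads and no exon bases of its own. Its count also follows that of HSPA1B, so HSPA1B enters the sum both directly and through AL671762.1. Leaving AL671762.1 out gave, with empty vector, 23.7% in SW480 and 48.6% in COLO320DM for HSPA1A with HSPA1B, and 75.6% in SW480 and 50.5% in COLO320DM for HSPA8. Which form was the larger in COLO320DM with empty vector therefore turns on AL671762.1. It also turns on the division by length. On raw counts with AL671762.1 kept, HSPA8 took 55.3% there and the HSPA1 group 43.8%. The direction of the difference between the lines held in each of these settings. With the HKDC1 plasmid and AL671762.1 left out, HSPA1A with HSPA1B took 36.2% in SW480 and 59.4% in COLO320DM. HSPA8 then took 62.7% in SW480 and 39.9% in COLO320DM. In SW480 with the HKDC1 plasmid the larger form turned as well, from the HSPA1 group (50.4%, with HSPA8 at 48.7%) to HSPA8. Without replicate 1 the HSPA8 difference between the lines was 21.0 percentage points with empty vector, beside 22.6 with all libraries, so this share did not rest on that library. HSPA6 with HSPA7 stayed a minor part, at 0.518 ± 0.188% in SW480 and 0.205 ± 0.0234% in COLO320DM with the HKDC1 plasmid.

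**Figure D5:**
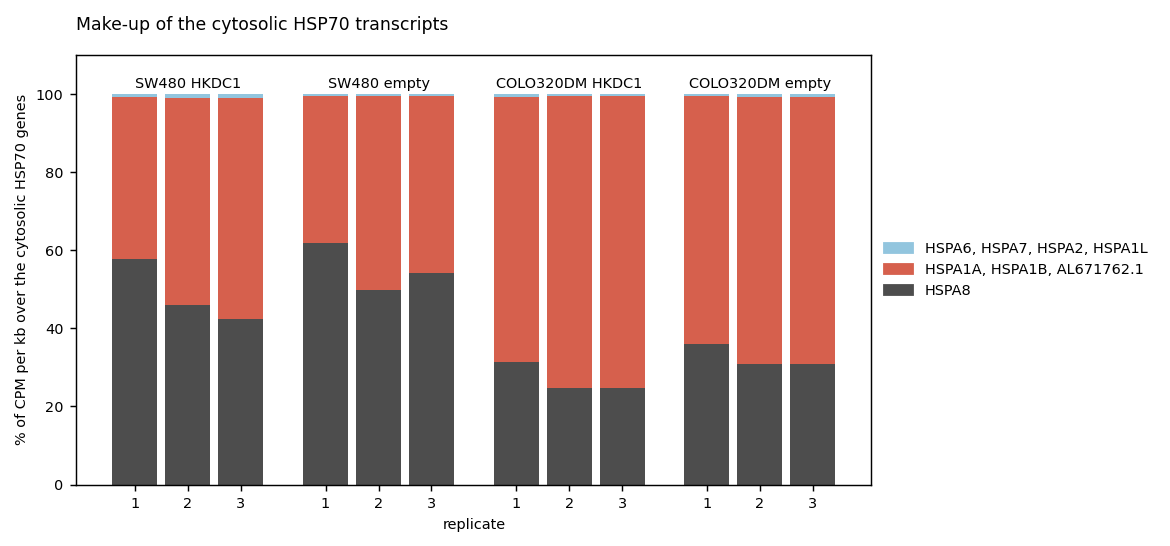
Share of CPM per kilobase taken by HSPA8, by the HSPA1 group and by the other cytosolic HSP70 genes in each library. HSPA8 takes 42.4 to 61.9% in the 6 SW480 libraries and 24.6 to 36.1% in the 6 COLO320DM libraries.

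A wider set of 53 chaperone genes, of which 51 could be tested, was examined beside the members. With empty vector 19 were called higher and 9 lower in SW480 than in COLO320DM, and with the HKDC1 plasmid 21 higher and 11 lower. Among other HSP70 relatives, 5 of 9 were higher and 1 lower with empty vector. The far relative HSPA12A (log2 3.54), the ribosome-associated HSPA14 (1.25) and the exchange factor HSPA4 (1.18) were higher, and HSPA12B (−2.70) was lower, while the ER form HSPA5 (−0.56, edgeR adjusted p = 0.202) did not pass. Among J-domain proteins 3 of 13 were higher and 4 lower. DNAJA4 was higher by 7.22 and the ribosome-associated DNAJC2 by 1.53, while the ER protein DNAJC3 (−1.62) and DNAJB4 (−1.02), a cytosolic relative of DNAJB1, were lower. The named genes had the same direction with the HKDC1 plasmid, with HSPA12A at 3.55, HSPA14 at 1.44, HSPA4 at 1.26, HSPA12B at −2.35, DNAJA4 at 7.45, DNAJC2 at 1.54 and DNAJC3 at −1.60.

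Partners of HSP70 and the heat shock factors gave a mixed picture. Of 10 exchange factors and partners tested, 5 were higher and 2 lower in SW480 with empty vector. The exchange factors HSPBP1 (log2 1.37) and BAG5 (0.89) and the HSP70 to HSP90 adaptor STIP1 (0.76) were higher, and BAG4 (−0.80) was lower. Of the 4 heat shock factors and regulators, HSF2 (−0.70) and the HSF1-binding protein HSBP1 (−0.49) were lower in SW480 with empty vector, and HSF1, the main stress factor, was at −0.16 (edgeR adjusted p = 0.307). With the HKDC1 plasmid all 4 were called lower, HSF1 at −0.36 (edgeR adjusted p = 0.0263). Of 15 other genes known to be induced by HSF1, 6 were higher and 0 lower in SW480 with empty vector, with ZFAND2A (1.62), the HSP90 co-chaperone CHORDC1 (1.17), HSP90AA1 (0.83) and the small heat shock protein HSPB1 (0.72) ahead. In the comparison with the HKDC1 plasmid 7 of these were higher and 0 lower, ZFAND2A by 1.53, CHORDC1 by 1.29, HSP90AA1 by 0.97 and HSPE1 by 0.81 on the log2 scale. The median log2 difference over the 51 genes was 0.202 with empty vector and 0.269 with the HKDC1 plasmid, beside 0.039 and 0.053 over all genes tested. Between the lines with empty vector 37.3% of all genes tested were called higher and 34.3% lower, and with the HKDC1 plasmid 37.4% higher and 33.5% lower, and no list was tested against these shares.

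With the HKDC1 plasmid against empty vector, 0 of the 51 other chaperone genes were called by edgeR in either line, and 1 in each had an unadjusted p under 0.05. Neither DESeq2 nor limma-voom called any of them. Once replicate number was a block, 3 were called higher in SW480, HSP90AA1 (log2 0.32, edgeR adjusted p = 0.00321), the J-domain protein DNAJA1 (0.31, adjusted p = 0.0126) and the mitochondrial HSPE1 (0.29, adjusted p = 0.00555). The J-domain gene DNAJB5 was called lower (−0.65, adjusted p = 0.00501), and 0 genes were called in COLO320DM. In that fit 0.76% of all genes were called in SW480 and 0.076% in COLO320DM. At an unadjusted p under 0.05 there were 21 of the 51 in SW480, beside 9.96% of all genes, and 6 in COLO320DM, beside 5.46%.

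The genes whose levels ran most like those of 4 members were listed by Pearson's r over the 12 libraries, after centring each line on its own mean. For HSPA8 they were the HSP90 activator AHSA1 (r = 0.998), the adaptor STIP1 (0.997), TBC1D14 (0.994), TARDBP (0.993) and HSP90AA1 (0.993). For the sum of HSPA1A and HSPA1B they were DNAJC16 (r = 0.954), GPX2, TIMELESS, TCAF1 and SNORA9. For DNAJB1 they were ERVMER34-1 (r = 0.973), LARS2, XXYLT1, PARP1 and HERC5, and for the sum of HSPA6 and HSPA7 the lowly counted PRR15 (r = 0.914), AC002472.1, AC005381.1, ENSG00000286329 and AC055720.2. The points share the 2 SW480 libraries of replicate 1, which lie far from the rest for HSPA8. These are descriptions of 12 libraries, with no test.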

How the data were processed

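The deposited table gives raw counts per gene, as the authors made them, for 12 poly-A selected libraries. Per the submitters' processing notes HISAT2 2.1.0, limma and the build GRCh38 were used, without a role for each. The read counter, annotation release, strand setting and treatment of reads that match several genes are not given in the sources used here. Symbols were found for 58584 of 60623 identifiers. The members, gene lists and tests were chosen with earlier results of these data known.

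All libraries entered 1 edgeR 4.0.16 model (R 4.3.3) of 4 group means, with filterByExpr (minimum count 10, minimum total 15), TMM factors, robust quasi-likelihood F tests and Benjamini-Hochberg adjustment over 23684 genes. Calls are at an adjusted p under 0.05. The biological coefficient of variation was 0.157, and each SE was derived from the fold change and the root of its F statistic. The code was tested on simulated data before use. CPM are scaled by TMM, and exon lengths are those deposited with the counts. Shares and copy ratios were compared by exact two-sided permutation. Promoter windows come from RefSeq (GRCh38.p14).

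Same-numbered libraries deviated together within each line (r of 0.723, 0.436 and 0.313 in SW480 and 0.403, 0.134 and 0.119 in COLO320DM). The replicate number within a line was therefore taken as a pairing, and blocked values are given where they change a call. Replicates 2 and 3 with the HKDC1 plasmid correlated more with the other number (0.467 and 0.369 in SW480, 0.16 and 0.15 in COLO320DM). The data thus set replicate 1 apart but do not pair replicates 2 and 3 by number. The block mostly separates replicate 1, and pairs of replicates 2 and 3 rest on the labels alone.

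Named genes were all 10 members, up to 4 called genes of largest fold change per list and comparison from 5 lists of HSP70 relatives, J-domain proteins, exchange factors and partners, heat shock factors and other HSF1-induced genes, and the 5 most similar genes for each of HSPA6 with HSPA7, HSPA1A with HSPA1B, HSPA8 and DNAJB1. HSPA5, and HSF1 with empty vector, were named after their values were seen. Alternatives were DESeq2 1.42.0, limma-voom (limma 3.58.1), RLE size factors, no filter, no robust dispersion, each library left out, each line alone, copies summed, and the replicate block.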

Additional observations from a re-analysis of the deposited data

Results flagged for a closer look

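The HSPA6 difference between the lines in the plasmid effect was singled out because the test of the difference itself passed once the replicate number was a block. The plasmid effect was larger in SW480 than in COLO320DM by 2.06 on the log2 scale (edgeR adjusted p = 0.000526), and every pair of libraries was higher with the HKDC1 plasmid in both lines. Without the block it was 2.06 with an adjusted p of 1. The gene was chosen with this response known, so the value is a description.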

How the results depend on the processing

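Of 390 values of single members between the lines, 31 changed sign, 8 gained and 8 lost a call in an alternative. Of 560 values of the plasmid effect in a line, 30 changed sign, 67 gained a call and 1 lost it, and of 270 values of the difference in plasmid effect 34 changed sign and 16 gained a call. The calls of DNAJB1, HSPA4L and HSPA1L between the lines held in 20 of 20 alternatives with either plasmid. The HSPA8 call held in 16 of 20 with either plasmid. It was lost with no filter on low counts (1.40 with empty vector, edgeR adjusted p = 0.089, and 1.5 with the HKDC1 plasmid, adjusted p = 0.0714), and without SW480 replicate 1, COLO320DM replicate 2 or COLO320DM replicate 3 in each comparison (adjusted p of 0.0505 to 0.214). In the lines, leaving out 1 library at a time, the ranges with empty vector were −0.60 to 0.031 for HSPA6, −0.35 to 0.51 for HSPA7, −1.02 to 0.37 for HSPA1A, −1.30 to 0.087 for HSPA1B, −0.28 to 0.065 for AL671762.1 and −0.25 to 0.94 for HSPA2. With the HKDC1 plasmid they were −0.024 to 0.40 for HSPA1A, −0.32 to 0.12 for HSPA1B and −0.11 to 0.084 for AL671762.1. Without replicate 1 of all groups HSPA7 (−0.55), HSPA1A (−0.89) and HSPA2 (−0.24) changed sign with empty vector, as did HSPA1A (−0.032) and AL671762.1 (−0.16, edgeR adjusted p = 0.0195) with the HKDC1 plasmid. With limma-voom HSPA1A was at −0.32 with empty vector and AL671762.1 at −0.0041 with the HKDC1 plasmid, where no filter gave −0.0091. The cause was not tested for any of these.

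The replicate block moved the members called for the plasmid effect to 4 in SW480 (1 without it), 2 in COLO320DM (0 without it) and 1 for the difference between the lines (0 without it). Leaving out 1 pair as well gave 3 to 8, 0 to 5 and 1 to 4. With copies summed the block gave 2, 1 and 1. Without replicate 1 of all groups the counts were 8, 2 and 1, and with the block 8, 4 and 3. The 8 without the block stand beside 3.03% of all genes called in SW480. Other counts in this paragraph come without the share of all genes called in the same fit. They are therefore not compared with genes at large. DESeq2 and no filter each gave 2 in SW480 and 1 for the difference, and the 6 SW480 libraries alone gave 0. Without single libraries SW480 gave 1 to 3. Members called between the lines with empty vector were 3 to 6 without single libraries and 8 without replicate 1 of all groups. With a replicate block shared by both lines, 4 members were called between the lines with empty vector and 6 with the HKDC1 plasmid, as without it, and HSPA1A was at −0.20 with empty vector and AL671762.1 at −0.012 with the HKDC1 plasmid. Same-numbered libraries of different lines deviated together only weakly (r of 0.022 to 0.154), so this is no pairing from the design. The share of HSPA2 (SW480 minus COLO320DM, percentage points) with empty vector was −0.160 on raw counts, −0.0880 without AL671762.1 and −0.0557 without replicate 1, and −0.120 on raw counts with the HKDC1 plasmid. That of HSPA1L with empty vector was 0.0479 without replicate 1. Leaving out replicate 1 of all groups, the block with it or with summed copies, and the block shared by both lines were chosen after seeing the data. HSPA1L and HSPA7, with under 100 counts per library, are limited by depth. HSPA6 also had under 100 counts in every library outside SW480 with the HKDC1 plasmid, so its folds share this limit.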
